A study of Rattus norvegicus with 36 samples.

Results

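The genes described here mark the zones of the liver lobule and its handling of nitrogen. They are Glul, Oat and Rhbg of the pericentral zone, and Gls2, Hal, Sds, Ass1, Arg1, Cps1 and Aldh1b1, which are periportal or belong to nitrogen metabolism. Of these 10 genes, 9 were found by a probe set whose single gene symbol in the array annotation is theirs, out of 14217 genes named in this way, and the brightest probe set of each gene over all arrays was used. Rhbg was found under no such probe set and is not analysed here, so the pericentral zone is held by 2 genes and the other set by 7. The arrays, of the Affymetrix 3′ kind, read liver RNA from male Harlan Sprague Dawley rats given TBPH by gavage, that is bis(2-ethylhexyl) tetrabromophthalate, a flame retardant that carries bromine. There were 6 groups of 6 arrays: corn oil alone as the vehicle, and TBPH in corn oil at 0.07 mg/kg, 0.71 mg/kg, 7.06 mg/kg, 70.6 mg/kg and 706 mg/kg. Every group was 7 weeks old when dosing began, ate the NTP-2000 diet and received 5 ml/kg on 5 days in a row, and the left lobe was sampled 1 day later. Whether the numbered replicates are separate animals is not stated, and the p-values then speak only of the spread among these arrays.

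Blood crosses the lobule from the portal tract to the central vein, and hepatocytes divide their work along that path. Periportal cells take ammonia out of amino acids and build urea, while a thin ring of cells around the central vein catches the ammonia that escapes and fixes it into glutamine. Wnt signals from the endothelium of the central vein maintain the pericentral programme, and hormones of feeding and fasting act on many of the periportal amino acid enzymes. These arrays read whole pieces of liver, so a gene's value here is a bulk level: fewer cells of one zone and less RNA per cell cannot be told apart, and where in the lobule a transcript lay was not measured.

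The values are the authors' log2 values on the scale of RMA, a method that makes arrays comparable by quantile normalization, and each step of 1 is a doubling. The arrays resembled each other closely, with correlations across probe sets from 0.987 to 0.996, where probe sets are not independent replicates. The 3′ minus 5′ difference of the GAPDH control probe sets, a sign of RNA quality, was 0.41 log2 on replicate 5 of the 70.6 mg/kg group and 0.33 log2 on replicate 4 of the 0.07 mg/kg group, against at most 0.09 on the other arrays. Results that rest on all 36 arrays are therefore also given without these 2 arrays where that changes a call. The 8 hepatocyte markers averaged 13.9 in each of the 6 groups. Of the marker lists of other cell types, the 5 measured Kupffer cell markers averaged from 8.19 to 8.44 over the groups, the 6 sinusoidal endothelial markers from 7.69 to 7.73, the 8 stellate cell markers from 7.50 to 7.69 and the 6 cholangiocyte markers from 5.22 to 5.27. The 4 erythroid markers averaged from 6.83 to 7.00, the 5 pancreas markers from 5.07 to 5.16 and the 5 kidney markers from 3.65 to 3.70. The pancreas average was raised by Cela1, at 10.14 over all arrays, where the other pancreas markers lay between 3.22 and 4.26. Likewise Hbb stood at 12.46, against 7.11 for Alas2, 4.33 for Epb42 and 3.77 for Rhag.

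No gene of either zone passed the test at any dose. With limma on all 36 arrays and Benjamini-Hochberg adjustment over 31042 probe sets, 0 of 9 genes were called against vehicle at any of the 5 doses from 0.07 to 706 mg/kg, where 0% of all probe sets were called in each comparison. The slope over dose rank and the test of any difference among the 6 groups also called 0 of 9, again with 0% of all probe sets called. At an unadjusted p under 0.05, 1 of 9 genes passed at 0.07 mg/kg (3.07% of all probe sets), 1 at 0.71 mg/kg (3.98%), 1 at 7.06 mg/kg (3.48%), 0 at 70.6 mg/kg (5.24%) and 1 at 706 mg/kg (3.48%). Aldh1b1 was that gene at the 3 lowest doses and Ass1 at 706 mg/kg. The slope had 1 of 9 such genes (4.16%) and the test of any difference 0 of 9 (2.54%). At 706 mg/kg 3 genes lay higher and 6 lower than in vehicle, with a median log2 difference of -0.02, against -0.0034 over all probe sets. The medians of the 9 genes were 0.02 at 0.07, 0.02 at 0.71, 0.01 at 7.06 and -0.04 at 70.6 mg/kg. Over the 5 doses no 95% interval of a gene reached below -0.69 or above 0.81 log2. The widest interval was that of Sds, at 0.45 to either side, and the narrowest that of Cps1, at 0.12. All 5 comparisons share the same 6 vehicle arrays, so differences that recur over doses are not independent of each other.

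**Figure D1:**
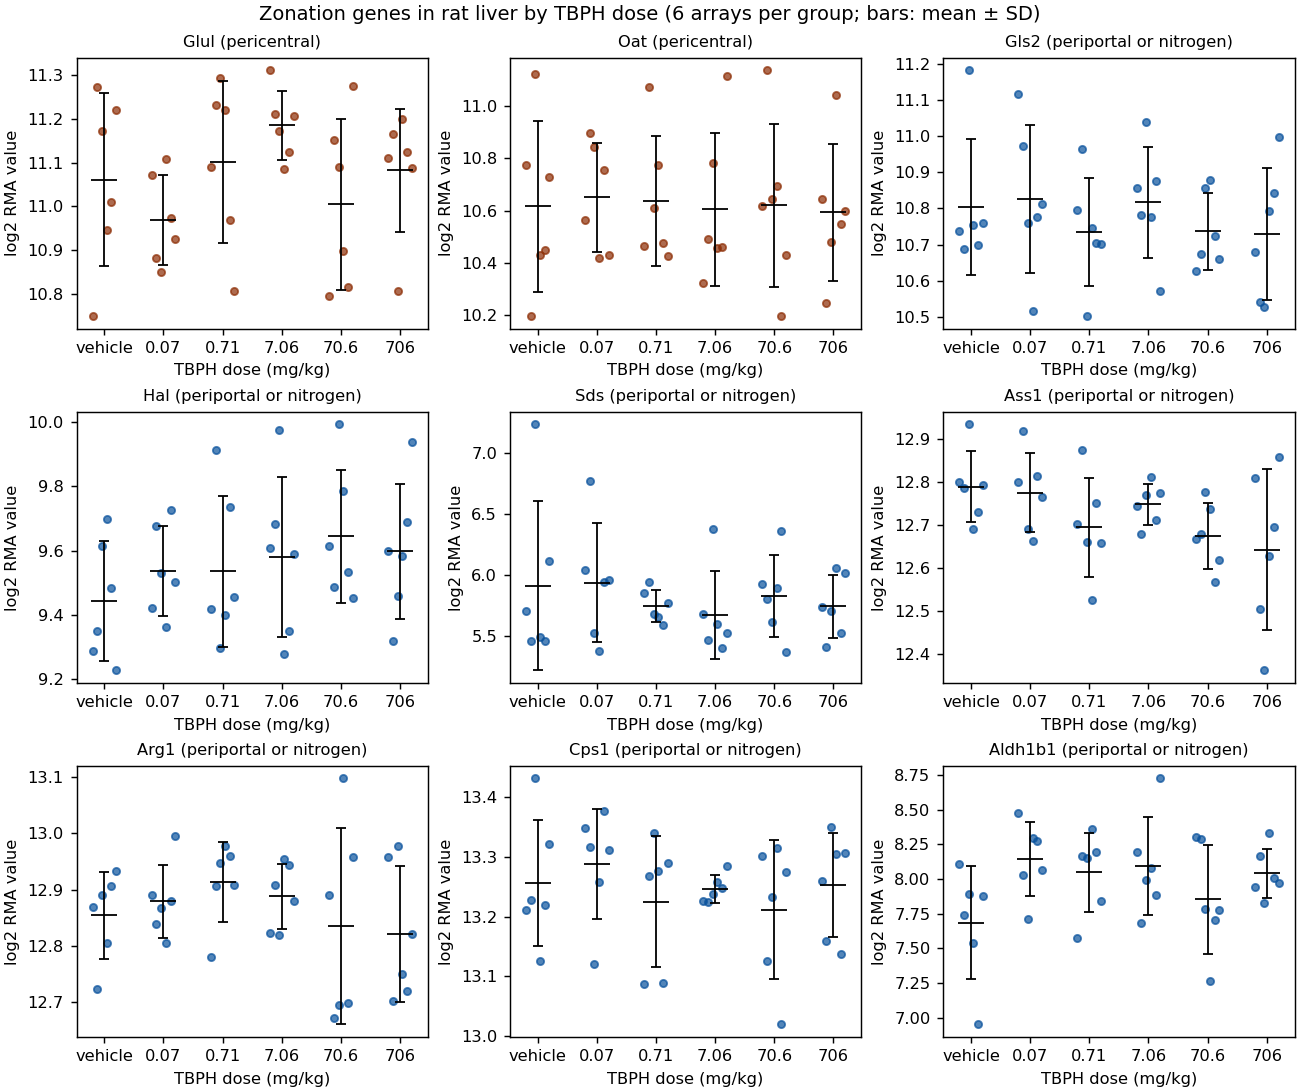
Log2 RMA values of the 9 zonation genes (vertical axis) by TBPH dose in mg/kg (horizontal axis, 0 is vehicle), with 1 point per array, 6 arrays per group, and bars for the mean ± SD; pericentral genes are brown and the others blue. The groups overlap for every gene, Sds reaches 7.23 on 1 vehicle array, and Aldh1b1 has its lowest value, 6.95, in vehicle.

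Glul encodes glutamine synthetase, the enzyme of the pericentral ring that joins ammonia to glutamate. It ran from 10.81 to 11.20 with a median of 11.12 at 706 mg/kg, and from 10.75 to 11.27 with a median of 11.09 in vehicle. The 2 groups overlapped over most of their range, and the difference was 0.02 (95% interval -0.16 to 0.20; limma, adjusted p = 1.00). Its sign turned without any of 3 arrays, to -0.04 without vehicle replicate 1, -0.0022 without vehicle replicate 4 and -0.0025 without replicate 4 at 706 mg/kg. Group means were 11.06 in vehicle, 10.97 at 0.07, 11.10 at 0.71, 11.19 at 7.06, 11.00 at 70.6 and 11.08 at 706 mg/kg. The highest mean, at 7.06 mg/kg, stood 0.12 above vehicle (-0.06 to 0.31) and the lowest, at 0.07 mg/kg, lay 0.09 below it, with a difference of -0.09 (-0.27 to 0.09). Glul has 3 probe sets. The dimmer pair gave -0.07 and -0.15 at 706 mg/kg, and -0.19 and -0.29 at 0.07 mg/kg, so at 706 mg/kg their sign was opposite to that of the brightest; none of these values passed. The -0.29, of the third probe set, had an interval of -0.58 to -0.0070 and an unadjusted p of 0.0449 (limma). Deviations of the brightest probe set from group means followed those of the second with r = 0.828 and those of the third with r = 0.449. The third probe set was lowest on the arrays of high 3′ to 5′ difference, with 8.76 on replicate 5 at 70.6 mg/kg and 8.86 on replicate 4 at 0.07 mg/kg. The brightest had 10.82 and 11.11 there. How far the -0.29 and the r of 0.449 rest on these arrays was not tested.

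Oat encodes ornithine aminotransferase, which turns ornithine into a precursor of glutamate and so can feed glutamine synthesis. It spread more than Glul, with an SD within groups of 0.279 against 0.158 log2 for Glul. Oat had the lowest value 10.25, the median 10.57 and the highest value 11.04 at 706 mg/kg, against 10.19, 10.59 and 11.12 in vehicle. Those ranges nearly coincide, and the difference was -0.02 (-0.33 to 0.28; adjusted p = 1.00). It was 0.08 without vehicle replicate 3, 0.0087 without vehicle replicate 1 and 0.05 without replicate 2 at 706 mg/kg. Its 6 group means lay between 10.59 and 10.65, closer together than for any other gene relative to its spread, with an F of 0.04 over the 6 groups (limma, adjusted p = 1.00).

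Start-site windows of Glul and Oat are shown because they are the pericentral pair measured here. Each window holds 300 bases of RefSeq, build GRCr8, from 250 before to 50 after an annotated start, and 7 of the 10 genes had 1 or 2 windows. Capitals mark CTTTGA (the core of the TCF/LEF motif through which Wnt signals act), TGACG (the short form of the cyclic AMP response element) and CCAAT, each searched on both strands. Of 33469 windows in the table, 16.1% hold CTTTGA, 21.2% TGACG and 37.5% CCAAT. The windows lie at chr13:68519250-68519549 and chr13:68575816-68576115 for Glul, both on the plus strand, and at chr1:196797705-196798004 for Oat, on the minus strand.
Glul, upstream start: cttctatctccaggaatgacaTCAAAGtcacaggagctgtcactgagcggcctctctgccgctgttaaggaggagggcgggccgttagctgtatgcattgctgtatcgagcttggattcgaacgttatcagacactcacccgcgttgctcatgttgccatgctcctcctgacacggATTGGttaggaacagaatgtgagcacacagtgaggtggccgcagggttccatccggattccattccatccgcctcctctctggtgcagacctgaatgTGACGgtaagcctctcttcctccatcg
Glul, downstream start: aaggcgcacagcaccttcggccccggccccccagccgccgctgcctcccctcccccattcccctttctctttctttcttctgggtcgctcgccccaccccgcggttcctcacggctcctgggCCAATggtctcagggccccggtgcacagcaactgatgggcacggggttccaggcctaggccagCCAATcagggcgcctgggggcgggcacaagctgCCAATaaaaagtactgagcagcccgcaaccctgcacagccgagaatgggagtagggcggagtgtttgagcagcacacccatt
Oat: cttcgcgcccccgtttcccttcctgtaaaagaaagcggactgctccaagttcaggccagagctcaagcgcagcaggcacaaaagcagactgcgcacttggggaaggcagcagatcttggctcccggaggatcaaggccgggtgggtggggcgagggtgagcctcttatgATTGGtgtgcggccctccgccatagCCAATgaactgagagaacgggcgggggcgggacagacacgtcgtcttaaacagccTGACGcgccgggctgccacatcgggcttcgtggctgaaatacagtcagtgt
The upstream Glul window holds CTTTGA on the other strand at bases 22 to 27, 1 TGACG and 1 CCAAT; the downstream one holds 3 CCAAT. The Oat window holds 1 TGACG and 2 CCAAT. Such a match describes the letters of the window and is no measured binding site.

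Gls2, Hal and Sds release ammonia or nitrogen from amino acids. Gls2 is the liver form of glutaminase, Hal is histidine ammonia-lyase, the first enzyme of histidine breakdown, and Sds is serine dehydratase, which turns serine into pyruvate and ammonia. Gls2 ran from 10.53 to 11.00 with a median of 10.74 at 706 mg/kg, and from 10.69 to 11.18 with a median of 10.75 in vehicle. In vehicle, replicate 3 lay well above the other 5 arrays, and the groups overlapped, with a difference of -0.07 (-0.26 to 0.12; limma, adjusted p = 1.00). Hal ran from 9.32 to 9.94 with a median of 9.59 at 706 mg/kg, and from 9.23 to 9.70 with a median of 9.42 in vehicle. Its mean was above vehicle at each dose, by 0.09 at 0.07, 0.09 at 0.71, 0.14 at 7.06, 0.20 at 70.6 and 0.15 at 706 mg/kg, and each interval included 0. The slope was 0.03 log2 per dose step (-0.0051 to 0.07; adjusted p = 1.00). Sds ran from 5.42 to 6.06 with a median of 5.73 at 706 mg/kg, and from 5.46 to 7.23 with a median of 5.60 in vehicle. It was the dimmest of the 9 genes, at 5.81 on average, brighter than 59.6% of all probe sets, and the most variable, with an SD within groups of 0.416 log2. Vehicle replicate 3 was high for Sds as well, and the difference at 706 mg/kg was -0.17 (-0.62 to 0.28; adjusted p = 1.00). Without that array the difference at 706 mg/kg turned to 0.09 for Sds and to 0.0026 for Gls2, so neither sign holds without it.

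Ass1, Arg1 and Cps1 are enzymes of the urea cycle and among the brightest genes of the array. Cps1, carbamoyl phosphate synthetase, brings ammonia into the cycle, Ass1, argininosuccinate synthetase, adds the nitrogen of aspartate, and Arg1, arginase, releases urea. Ass1 had 12.81, 12.50, 12.36, 12.63, 12.69 and 12.86 on the 6 arrays at 706 mg/kg, against 12.80, 12.79, 12.93, 12.69, 12.73 and 12.79 on those of vehicle. At 706 mg/kg 3 arrays lay below all vehicle arrays and the other 3 within their range. The difference was -0.15 (-0.28 to -0.01), with an unadjusted p of 0.0333 and an adjusted p of 1.00 (limma). The means of Ass1 were 12.79 in vehicle, 12.78 at 0.07, 12.70 at 0.71, 12.75 at 7.06, 12.67 at 70.6 and 12.64 at 706 mg/kg. The slope was -0.03 per dose step (-0.05 to -0.0062; unadjusted p = 0.0132, adjusted p = 1.00). Leaving out each array in turn moved the difference at 706 mg/kg no further than from -0.19 to -0.09 (the last without replicate 3 at 706 mg/kg), and it passed under none of these.

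Arg1 ran from 12.70 to 12.98 with a median of 12.79 at 706 mg/kg, and from 12.72 to 12.93 with a median of 12.88 in vehicle. The difference was -0.03 (-0.16 to 0.09; limma, adjusted p = 1.00). Cps1 ran from 13.14 to 13.35 with a median of 13.28 at 706 mg/kg, and from 13.13 to 13.43 with a median of 13.22 in vehicle. Its difference of -0.0032 (-0.12 to 0.12; adjusted p = 1.00) was the smallest in size of the 9 genes at that dose, and its sign turned without any of 4 arrays (0.03 without vehicle replicate 3, 0.0099 without vehicle replicate 6, and 0.02 without replicate 2 or without replicate 5 at 706 mg/kg). Its second probe set differed by 0.0087 (-0.17 to 0.19). Cps1 and Arg1 were also the steadiest genes, with SDs within groups of 0.0937 and 0.103 log2, where the median of the 7843 genes with a mean of at least 6 is 0.133. Both lie near the top of the array's scale, brighter than 99.8% and 99.6% of all probe sets, and whether their range was compressed there was not tested.

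Aldh1b1, a mitochondrial aldehyde dehydrogenase, gave the largest difference from vehicle of the 9 genes at every dose but 70.6 mg/kg, where Hal did. It ran from 7.83 to 8.33 with a median of 7.99 at 706 mg/kg, and from 6.95 to 8.11 with a median of 7.81 in vehicle. Every array at 706 mg/kg lay within or above the vehicle range, and the difference was 0.35 (-0.00097 to 0.71; limma, adjusted p = 1.00). Differences were 0.46 at 0.07 (0.10 to 0.81), 0.36 at 0.71 (0.0066 to 0.72), 0.41 at 7.06 (0.05 to 0.76) and 0.17 at 70.6 mg/kg (-0.19 to 0.52), with an adjusted p of 1.00, 1.00, 1.00 and 0.937. The order of the means did not follow dose: 8.14 at 0.07 mg/kg was the highest, then 8.09 at 7.06, 8.05 at 0.71, 8.04 at 706, 7.85 at 70.6 and 7.69 in vehicle. Without vehicle replicate 5, the lowest array, the differences were 0.31 at 0.07, 0.22 at 0.71, 0.26 at 7.06, 0.02 at 70.6 and 0.21 at 706 mg/kg. The slope was 0.03 per dose step (-0.04 to 0.09).

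**Figure D2:**
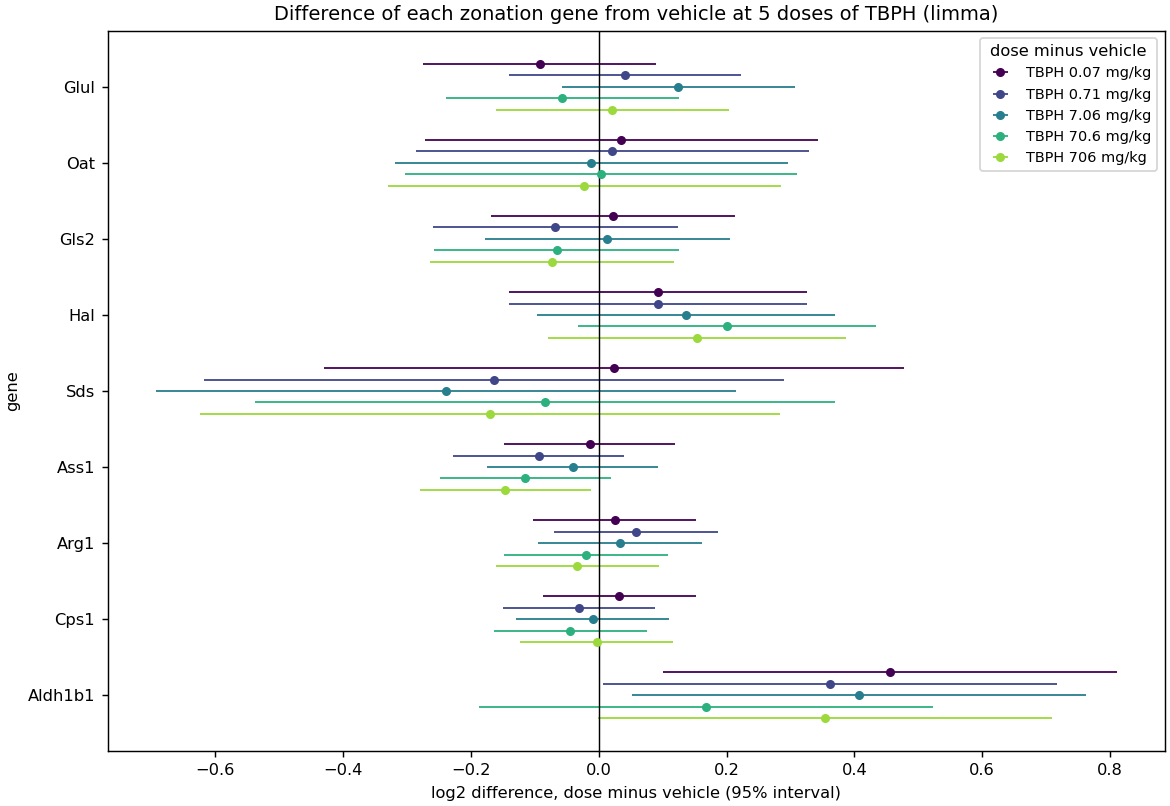
Log2 difference of each dose from vehicle (horizontal axis, point, with its 95% interval as a line) for the 9 zonation genes (vertical axis), 1 colour per dose. Aldh1b1 lies right of 0 at each of the 5 doses and Ass1 left of it, and no difference passed after adjustment.

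The arrays varied within dose groups in patterns shared by some of these genes. Each gene's deviations from its group means were correlated over the 36 arrays for all 36 pairs of the 9 genes, with two-sided permutation tests of 100000 permutations within dose groups and Benjamini-Hochberg adjustment over the 36 pairs. By Pearson's r 6 pairs passed, all positive and all within the periportal and nitrogen set, where 6 of 21 pairs are 28.6%. The weakest of these had r = 0.438, a value that 8.23% of all pairs of genes with a mean of at least 6 reach or exceed, 2.87% reach with a negative sign and 11.1% in either sign. That weakest pair is Sds and Ass1, and Sds, with a mean of 5.81, is itself not among the genes with a mean of at least 6. With these probe sets none of the 14 pairs between the zones passed by Pearson's r, and 7 of all 36 pairs were at least 0.438 in size. The median r was 0.203 within the periportal and nitrogen set, from -0.207 to 0.657, and 0.223 between the zones, from -0.220 to 0.449. Over all pairs of such genes it was 0.06, with 90% of pairs between -0.376 and 0.504. The sets of pairs within and between thus had similar medians, and no test was made of the difference between them. The pairs between the zones were unlike each other. Those of Oat ran from 0.0407 to 0.449, and those of Glul from -0.220 to 0.255, negative with Hal, Sds and Arg1.

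The passing pairs fell into 2 sets of genes with no passing pair between them. Gls2, Hal, Sds and Ass1 formed 5 of the 6 possible pairs among them. Gls2 and Sds had the highest r, 0.657 (p = 0.0004, adjusted p = 0.00564; Spearman's rho 0.622, adjusted p = 0.00468; permutation tests), and 0.572 without the 2 arrays farthest from the median of Gls2. Gls2 and Ass1 had r = 0.615 (adjusted p = 0.00564; rho 0.540, adjusted p = 0.0219), and 0.608 without 2 such arrays. Gls2 and Hal had r = 0.570 (adjusted p = 0.00564; rho 0.516, adjusted p = 0.0219), and 0.649 without 2 such arrays. These 3 pairs passed under all 44 alternatives. They pool deviations over the 6 groups, and r within single groups was not tested.

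Hal and Ass1 had r = 0.535 (adjusted p = 0.0116; rho 0.496, adjusted p = 0.0300; permutation tests), and 0.504 without the 2 arrays farthest from the median of Hal. Without centring on group means it was 0.338 (adjusted p = 0.143). Sds and Ass1 had r = 0.438 (adjusted p = 0.0179; rho 0.449, adjusted p = 0.0438), and 0.297 without the 2 arrays farthest from the median of Sds, so this relation rests in part on them. It did not pass without vehicle replicate 3 (r = 0.363, adjusted p = 0.144), without replicate 2 at 0.07 mg/kg (0.377, adjusted p = 0.0761) or without centring (0.435, adjusted p = 0.0631). Hal and Sds, the pair of this set that did not pass, had r = 0.332 (adjusted p = 0.158; rho 0.272, adjusted p = 0.302).

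Arg1 and Cps1 formed the other set, with r = 0.546 (p = 0.00298, adjusted p = 0.0179; rho 0.557, adjusted p = 0.0219; permutation tests), and 0.502 without the 2 arrays farthest from the median of Arg1. The second probe set of Cps1 gave 0.337 (adjusted p = 0.240), and without replicate 1 at 0.71 mg/kg the adjusted p was 0.0506 with r = 0.510. The 2 probe sets of Cps1 followed each other with r = 0.669. Arg1 showed r of -0.0030 with Ass1, -0.0148 with Gls2 and -0.0879 with Hal, and none of these pairs passed. Cps1 had r = 0.228 with Ass1 (adjusted p = 0.474) and, with its second probe set, 0.465 (adjusted p = 0.0222). With that probe set a pair between the zones also passed, Oat and Cps1, with r = 0.525 (adjusted p = 0.0222), against 0.352 (adjusted p = 0.169) with the brightest. Arg1 and the brightest probe set of Cps1 ran opposite to most of the 7842 other genes with a mean of at least 6. The median r was -0.163 for Arg1, with 27.6% positive, and -0.139 for Cps1, with 31.8% positive. For Glul it was 0.03, with 57.5% positive. For the second probe set of Cps1 this was not examined.

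**Figure D3:**
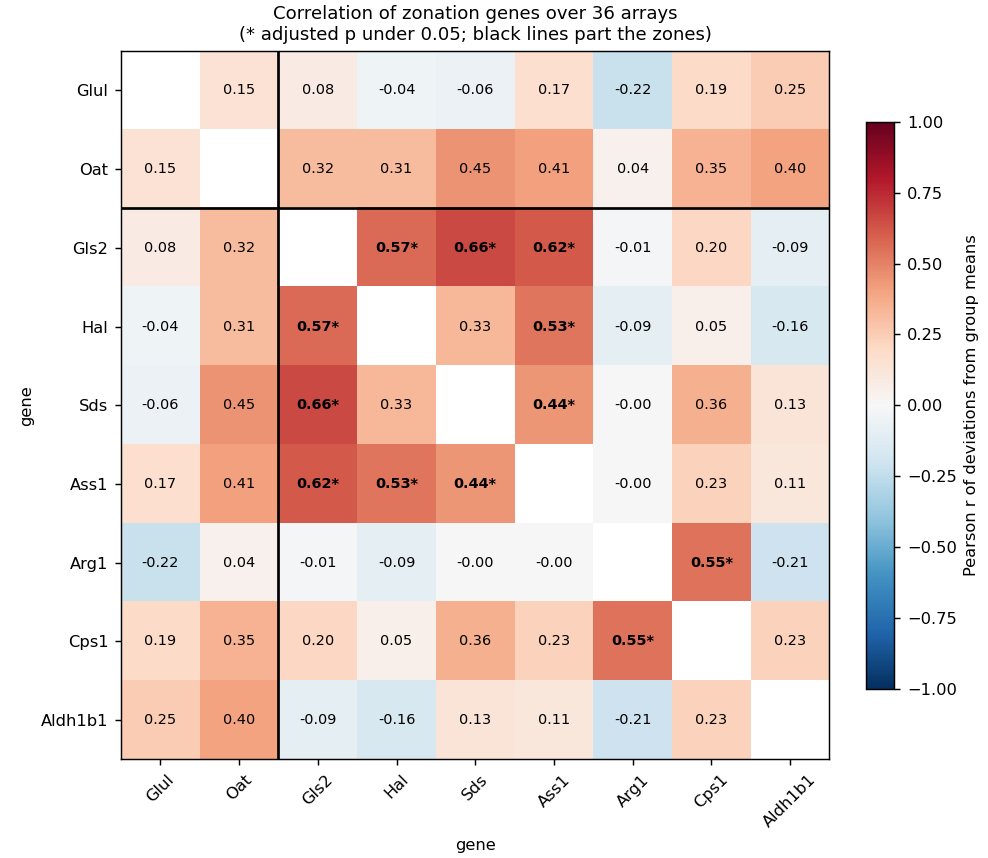
Pearson r of deviations from group means over 36 arrays for each pair of the 9 zonation genes (both axes), coloured from blue (-1) to red (1); bold values with a star had an adjusted p under 0.05, and black lines part the pericentral genes Glul and Oat from the rest. The starred pairs are the 5 among Gls2, Hal, Sds and Ass1, up to 0.66, and that of Arg1 and Cps1, 0.55.

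The Gls2 windows are shown because Gls2 belongs to the pair with the highest r of its set, marked as for Glul and Oat. They lie at chr7:1201629-1201928 and chr7:1206874-1207173 of GRCr8, both on the plus strand.
Gls2, upstream start: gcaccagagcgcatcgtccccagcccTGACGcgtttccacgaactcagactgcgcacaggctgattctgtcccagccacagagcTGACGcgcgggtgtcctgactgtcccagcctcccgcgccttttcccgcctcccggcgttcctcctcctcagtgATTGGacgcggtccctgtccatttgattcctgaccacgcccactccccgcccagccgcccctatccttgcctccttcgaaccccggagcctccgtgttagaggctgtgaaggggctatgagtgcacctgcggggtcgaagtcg
Gls2, downstream start: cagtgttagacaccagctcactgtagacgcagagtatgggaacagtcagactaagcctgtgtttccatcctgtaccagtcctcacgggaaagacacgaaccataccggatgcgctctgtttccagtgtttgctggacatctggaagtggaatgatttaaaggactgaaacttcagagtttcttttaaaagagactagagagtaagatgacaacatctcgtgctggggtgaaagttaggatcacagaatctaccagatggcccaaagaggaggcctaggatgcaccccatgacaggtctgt
The upstream window holds 2 TGACG and 1 CCAAT, and the downstream window none of the 3 motifs. Among the members whose windows are not printed, Cps1 holds 1 CTTTGA and Aldh1b1 1 TGACG and 1 CCAAT.

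The pericentral genes did not pass as a pair. Glul and Oat had r = 0.146 (p = 0.452, adjusted p = 0.678; rho 0.0898, adjusted p = 0.776; permutation tests), and 0.160 without the 2 arrays farthest from the median of Glul. Leaving out each array in turn gave r between 0.0793 and 0.247. Among the 7842 genes ranked by r with Glul, Oat stood at 2104, and Arg1, with r = -0.220, at 7141. Oat had a positive r with all 7 genes of the other set, from 0.0407 with Arg1 to 0.449 with Sds. By Pearson's r its pairs with Sds (adjusted p = 0.0640) and Ass1 (r = 0.411, adjusted p = 0.0640) missed the threshold, and by Spearman's rho Oat and Ass1 passed (0.467, adjusted p = 0.0373). Without the 2 arrays of high 3′ to 5′ difference 8 pairs passed in place of 6, the added ones being Oat and Sds (0.554, adjusted p = 0.0178) and Sds and Cps1 (0.524, adjusted p = 0.0178). The 9 genes themselves had r between -0.273 and 0.107 with that difference.

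The genes most like each member were named by rule, as the 2 with the highest r among the genes with a mean of at least 6; since they were chosen for that value it carries no test. For Glul they were Mical3 (r = 0.606) and Axin2 (0.560), a negative regulator of Wnt signalling whose transcript Wnt induces. Hal was nearest to Uroc1 (0.752), the urocanase that takes up the product of Hal in histidine breakdown, and Dcxr (0.744). For Gls2 they were Gpt (0.715), alanine aminotransferase, and Iyd (0.708). Sds had Gls2 itself in the top place of 7843 genes, then Tmem176a (0.640). Ass1 was nearest to Vangl1 (0.762) and Plekha8 (0.743), Arg1 to Btg1 (0.722) and Pde4b (0.682), and Cps1 to Nadk2 (0.757), the mitochondrial NAD kinase, and Serinc1 (0.732). Oat had Ddc (0.725), aromatic amino acid decarboxylase, and Scp2 (0.680), and Aldh1b1 had Abcg2 (0.730), an efflux transporter, and Lrp2 (0.653). Among members, Ass1 ranked 15 and Hal 35 from the top for Gls2, and Cps1 ranked 30 for Arg1.

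**Figure D4:**
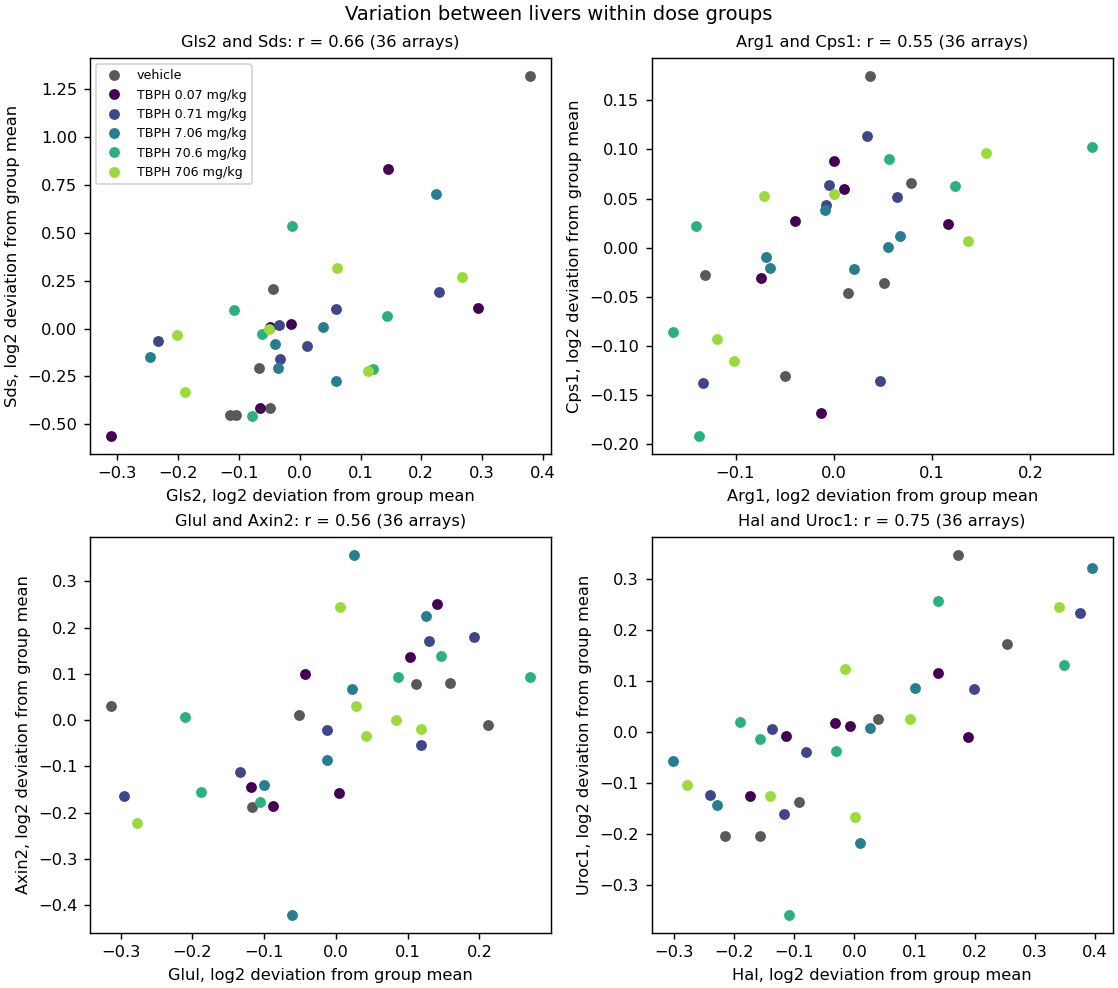
Log2 deviations from group means for 4 pairs of genes, 1 point per array and 1 colour per dose group: Gls2 (horizontal) and Sds (vertical), Arg1 and Cps1, Glul and Axin2, and Hal and Uroc1. The clouds rise with r of 0.66, 0.55, 0.56 and 0.75, and 1 vehicle array lies highest for both Gls2 and Sds.

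Other genes of the pathways were followed through lists, for which the shares over all probe sets at 706 mg/kg were 48.4% higher and 3.48% at an unadjusted p under 0.05. Of 27 other pericentral genes 23 were measured and 0 were called at any dose. The median difference at 706 mg/kg was -0.01, with 7 genes higher, 16 lower and 1 at an unadjusted p under 0.05, against -0.0034 for all probe sets. Tcf7l2, a TCF factor of the Wnt pathway, and the glutamate transporter gene Slc1a2 had the smallest p for any difference among the groups. Tcf7l2 differed by 0.21 at 706 mg/kg, and Slc1a2, dim with a mean of 5.68, by -0.0092. Within groups, 15 of the 16 such genes with a mean of at least 6 had a positive r with Glul, with a median of 0.307, where all 7842 genes had a median of 0.03 and 57.5% were positive. The values ran from -0.221 for Cyp7a1, the bile acid enzyme, to 0.560 for Axin2, and included 0.504 for Cyp2e1 and 0.472 for Cyp1a2, drug-metabolising enzymes of the pericentral zone named after their values were seen. Axin2 was also picked above for its r with Glul, and the list was chosen with earlier results of these data known. Its genes need not be independent of each other, and the counts were not tested. With Oat, 9 of the same 16 genes were positive, with a median of 0.08. With Ass1, 13 were positive, with a median of 0.157 against 0.0877 for all genes. With Cps1, 10 were positive, with a median of 0.05 against -0.139. The list median also lay above that of all genes for Oat, Gls2 and Aldh1b1, and below it for Hal, Sds and Arg1.

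Of 15 measured periportal genes 0 were called at any dose, with 7 higher, 8 lower and 0 at an unadjusted p under 0.05 at 706 mg/kg and a median of -0.01. Hsd17b13, a lipid droplet protein, differed by -0.08 at 706 mg/kg. Hsd17b6 differed by -0.36 at 0.07, -0.55 at 0.71, 0.05 at 7.06, -0.19 at 70.6 and -0.20 at 706 mg/kg, which does not follow dose. Of the 14 listed periportal genes with a mean of at least 6, the median r was 0.0749 with Gls2 and 0.0852 with Hal. These lay close to the medians over all genes of 0.03 and 0.0822. The gap was wider for Cps1, with -0.0004 against -0.139 for all genes, and for Arg1, with -0.0764 against -0.163. The list median also lay above that of all genes for Glul, Oat and Sds, and below it for Ass1 and Aldh1b1. The 22 measured genes of the urea cycle and ammonia handling, of which 0 were called at any dose, had 9 higher, 13 lower and 1 at an unadjusted p under 0.05 at 706 mg/kg and a median of -0.01. Nags, which makes the activator of Cps1, differed by -0.02 and the glutamine transporter gene Slc38a5 by -0.17. Slc38a5 was dim, with a mean of 4.50, where the median of all values is 5.09. Of the 16 with a mean of at least 6, 14 had a positive r with Hal, with a median of 0.365, and 14 with Gls2, with a median of 0.292. With Arg1, 7 were positive and 9 negative, with a median of -0.103 against -0.163 for all genes. With Ass1, 15 were positive, with a median of 0.155 against 0.0877. The list median lay above that of all genes for every zonation gene but Aldh1b1.

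The list of amino acid breakdown, with 28 genes measured, also holds Phgdh, Psat1 and Psph, which make serine, and all counts and medians include them. Of the 28 genes, 11 were higher and 17 lower at 706 mg/kg, with a median of -0.02. The median at 7.06 mg/kg was 0.06, with 25 genes higher and 3 lower, against -0.0037 for all probe sets, of which 48.1% were higher. At the other doses 14 were higher and 14 lower at 70.6, 13 and 15 at 0.71, and 19 and 9 at 0.07 mg/kg, so the counts did not follow dose. Many of the 28 genes shared a positive r with Hal within groups, so they are not independent of each other, and the counts were not tested. Of the 28, 0 were called at any dose, and 1 had an unadjusted p under 0.05 at each of 0.71, 7.06 and 706 mg/kg (3.98%, 3.48% and 3.48% of all probe sets). Aass, the first enzyme of lysine breakdown, differed by 0.06 at 7.06 and -0.14 at 706 mg/kg, and Tdo2, the first enzyme of tryptophan breakdown, by 0.08 and -0.12. Within groups, 24 of the 28 had a positive r with Hal (median 0.359), 24 with Gls2 (0.319) and 23 with Ass1 (0.280), where the medians over all genes were 0.0822, 0.03 and 0.0877. The negative genes with Hal and with Gls2 were Tat, Phgdh, Psat1 and Psph. With Arg1, 12 were positive, with a median of -0.0345 against -0.163 for all genes, and with Cps1 17, with a median of 0.0778 against -0.139. The median with Sds was 0.176 against -0.0151 for all genes, and with Oat 0.173 against 0.0253. It lay above that of all genes for Glul too, and below it only for Aldh1b1 (-0.0535 against 0.0451). Of 27 measured Wnt and zonation regulators 0 were called at any dose, with 17 higher, 10 lower and 2 at an unadjusted p under 0.05 at 706 mg/kg and a median of 0.02. Ntf3, a neurotrophin, differed by -0.02 and Rspo3, an enhancer of Wnt signalling from the central vein, by -0.08. Ntf3 was dim, with a mean of 5.24, where the median of all values is 5.09. Ntf3 had the smallest p of its list for any difference (unadjusted p = 0.0064, adjusted p = 1.00), with 0.42 at 0.07 mg/kg.

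**Figure D5:**
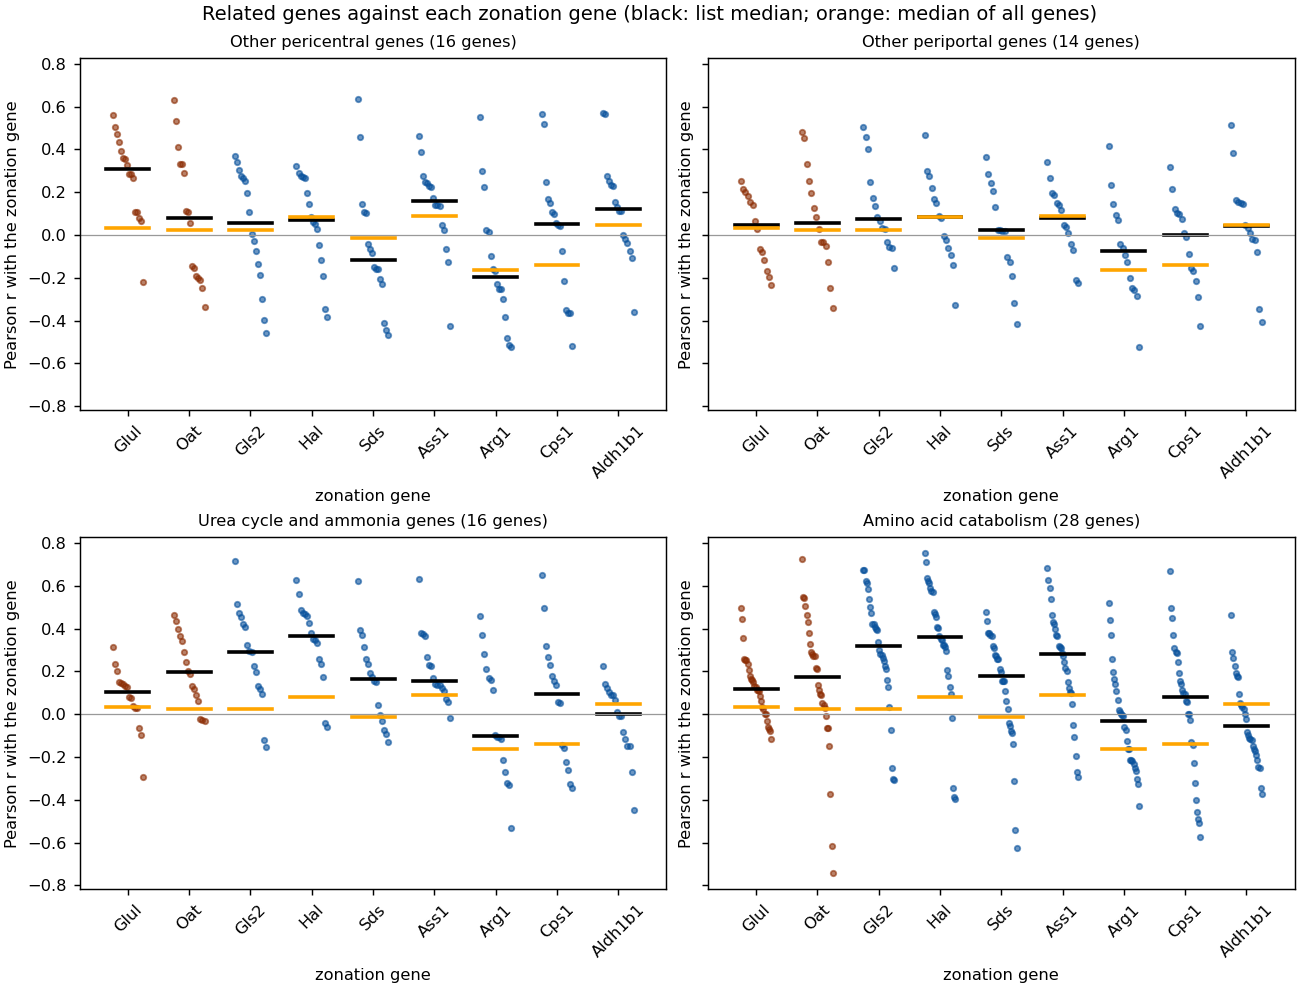
Pearson r over 36 arrays (vertical axis) of each related gene with each of the 9 zonation genes (horizontal axis), in 4 panels for the other pericentral genes, other periportal genes, urea cycle and ammonia genes, and amino acid catabolism. Black lines are list medians and orange lines medians of all genes with a mean of at least 6. The pericentral list lies above its orange line for Glul (0.307 against 0.03), and also for Oat, Gls2, Ass1, Cps1 and Aldh1b1. The urea cycle and amino acid lists lie above theirs for every zonation gene but Aldh1b1.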

How the data were processed

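The values the authors deposited are log2 intensities, 1 for each probe set on each array. Per the submitters' processing notes, RMA and the affy package were used; their versions and a genome build are not given in the sources used here. After 57 array controls were dropped, 31042 probe sets were tested. Groups follow the sample titles, and each column's name is its sample's accession. limma 3.58.1 in R 4.3.3 fitted 1 mean per group to all 36 arrays, and its moderated tests, two-sided, were called at a Benjamini-Hochberg adjusted p under 0.05. R/maanova, named in the design text, was not used here. Correlations were computed in Python 3.11.15 with numpy 2.4.6, for 36 pairs, since Rhbg had no probe set. Both steps were tested on simulated data. Genes were named as members, as the 2 most alike genes of each member, and as the 2 genes of each list with the smallest p for any difference; others are marked as chosen after their values were seen. The members and lists were chosen with earlier results of these data known. Arrays give no read depth, and their number limits the precision. Alternatives tried were a fit on 2 groups alone, the replicate number as a block, robust moderation, array weights, omission of dim probe sets, renewed centring of arrays, other probe sets, the 3′ to 5′ difference, looser thresholds and omission of single arrays.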

Additional observations from a re-analysis of the deposited data

Results flagged for a closer look

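In 5 of the 54 groups of arrays checked (9 genes in 6 dose groups), 1 array stood apart from the other 5 by more than Dixon's limit, which chance passes in about 5% of groups. Vehicle replicate 3 had the highest Gls2, 11.18, where the next array had 10.76, and the highest Sds, 7.23, where the next had 6.12. At 7.06 mg/kg, replicate 3 had the highest Sds, 6.38, where the next array had 5.68. The lowest Glul at 706 mg/kg was that of replicate 3, 10.81, where the next array had 11.09. The lowest Arg1 at 0.71 mg/kg was that of replicate 1, 12.78, where the next array had 12.91. Without vehicle replicate 3 the pair of Gls2 and Sds had an r of 0.537 and still passed, and that of Sds and Ass1 did not (adjusted p = 0.144, permutation test).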

How the results depend on the processing

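Under the alternatives listed, 0 zonation genes and 0 probe sets were called at any dose, for the slope or for any difference, and the smallest adjusted p of a member difference or slope was 0.7295. Pairs that passed numbered 6, 5 to 9 when each array was left out in turn, 5 without centring, 8 without the 2 arrays of high 3′ to 5′ difference, 7 with that difference as a covariate, 7 with the second probe sets and 8 at an adjusted p under 0.1. Of 1584 repeats of a pair, 6 lost and 22 gained a call. The median r of other pericentral genes with Oat, 0.08, was -0.0376 without these 2 arrays and -0.0079 with the covariate, and ran from -0.0588 (without replicate 5 at 70.6 mg/kg) to 0.122 (without vehicle replicate 2) when single arrays were left out; the cause was not tested. Without centring, r was 0.476 for Glul and Mical3, 0.594 for Ass1 and Plekha8 and 0.555 for Aldh1b1 and Abcg2. The replicate numbers are shared across groups, but same-numbered arrays did not deviate together (median correlation -0.02 over 90 pairs of arrays), and 4 of 36 arrays correlated best with one of their own number. With the replicate block 7 pairs passed, Oat and Ass1 being added (r = 0.475, adjusted p = 0.0398, permutation test), and 0 genes were called at any dose. The number of arrays limits the precision of all differences.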

Other observations

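The list of amino acid breakdown also holds Phgdh, Psat1 and Psph, the 3 enzymes that make serine from a glycolytic intermediate, and they ran opposite to several members within dose groups; they are named after their values were seen, and these correlations carry no test. Psat1 had an r of -0.744 with Oat over the 36 arrays, -0.541 with Sds and -0.511 with Cps1. Phgdh had -0.626 with Sds, which degrades serine, -0.618 with Oat and -0.572 with Cps1. Psph had -0.313 with Sds and -0.372 with Oat. With Glul the 3 genes had 0.108 (Phgdh), 0.161 (Psat1) and -0.0306 (Psph).

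Car3, the muscle-type carbonic anhydrase that is abundant in male rat liver and stands in the pericentral list, had an r of 0.637 with Sds, 0.630 with Oat and 0.564 with Cps1, against 0.0791 with Glul. Cyp7a1 had 0.550 with Arg1, -0.467 with Sds and -0.457 with Gls2. Cebpa and Cebpb, transcription factors of hepatocyte metabolism, had -0.541 and -0.550 with Arg1. Arg1 ran opposite to most genes, with a median r of -0.163 and a lower quartile of -0.325 over all genes with a mean of at least 6. These genes were also picked by their values, so the sizes describe these arrays only.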
